A study of Danio rerio with 5 samples.

Results

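The subject is a set of 10 zebrafish genes that encode subunits of the BAF and PBAF chromatin remodeling complexes: smarcc1a, smarcc1b, smarcc2, smarcd1, actl6a, arid1aa, arid1ab, arid1b, pbrm1 and pbrm1l. They were picked by name from a table of 22656 genes, after the difference of these genes between the stages was known from the same libraries. All 10 were in the table. All 10 also passed the filter on low counts that left 12007 genes, but smarcc2 and pbrm1 passed it through the MBT libraries alone. Total RNA came from embryos of the Tübingen strain freed of chorion and yolk, after the mid-blastula transition (post-MBT, 5.3 hours post-fertilisation, 30% epiboly; n = 2 libraries) and at it (MBT, 4 hours post-fertilisation, sphere stage; n = 3 libraries). No mutation, knockdown or treatment is named for either stage, and these are embryos without yolk that hold mixed cell types. Because the difference between the stages chose the genes, their values are given as a description and carry no test.

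BAF and PBAF are forms of SWI/SNF, a machine that uses ATP to slide or evict nucleosomes. A shared core, built on SMARCC scaffold proteins, holds the ATPase. An ARID1 subunit defines the BAF form, while PBRM1, ARID2, BRD7 and PHF10 define the PBAF form. Many subunits come from families of paralogs that fill the same place in the complex, and in mammals the choice of paralog changes as neurons form. Zebrafish carry further copies, marked a and b, from the genome duplication of bony fishes.

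The total count per library was 2488983 to 3701401. Mitochondrial genes took 51.4% and 51.5% of the counts in the post-MBT libraries, against 43.0% to 50.6% in the MBT libraries. Levels are given as CPM (counts scaled to a common library size with TMM factors), or as CPM per exonic kilobase where genes are set beside each other. Libraries of a stage are called A, B and C without order, and nothing says whether they came from separate clutches, so the spread between them can be partly technical. Maternal marker genes (buc, btg4, mid1ip1l, cldnd and zar1) summed to 69.2 to 76.1 CPM of the library total post-MBT and to 488 to 579 at the MBT. Of these, 4 fell by edgeR and zar1 had no call (log2 fold change -0.33). The mesoderm genes ta, tbx16 and mixl1 summed to 1242 to 1317 CPM post-MBT and to 154 to 192 at the MBT. The marker lists were chosen with earlier results of these data known, so the sums describe the libraries and do not test their stage labels. The enveloping layer genes krt4, krt8, krt18 and evpla summed to 672 CPM in both post-MBT libraries and to 82.0 to 113 at the MBT. The yolk syncytial layer genes hnf4a, hnf1ba, slc26a1 and mxtx2 summed to 46.5 to 57.4 CPM post-MBT and to 17.7 to 19.5 at the MBT. By edgeR 3 of them rose and mxtx2 fell (log2 fold change -0.57), a call lost under most alternatives, among them DESeq2 and leaving out post-MBT A. Yolk removal may take along tissue that adheres to it, and how much of this layer each library kept is not known. Marker sums of both cell types were higher post-MBT, and their part in the values below was not tested. In bulk RNA, fewer cells of a type and less RNA per cell cannot be told apart.

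Of the 10 genes, 6 were higher post-MBT and 4 were lower, though with library totals arid1aa also came out lower. In each of the smarcc, arid1 and pbrm1 families, 1 paralog stood far above another at both stages, and it was the scarce copy that was lower post-MBT. For smarcc2 and pbrm1 this rests on 1 to 6 counts per library post-MBT. In the smarcc and pbrm1 families the leading paralog was the same at both stages: smarcc1a and pbrm1l had the highest level of their family in every library, with a larger share post-MBT. In the arid1 family, arid1ab and arid1aa held 52.9% and 45.2% of the level per exonic kilobase post-MBT, against 47.4% and 49.1% at the MBT. There arid1ab was ahead in both post-MBT libraries and in MBT A, and arid1aa in MBT B and C, but in raw counts arid1ab led in every library. The libraries of the stages did not overlap for any of the 10 genes, as for 73.9% of all tested genes (36.3% higher and 37.6% lower post-MBT). In edgeR's quasi-likelihood test, adjusted over all tested genes by the Benjamini-Hochberg method, 5 of the 10 were past an adjusted p of 0.05 upward and 4 downward, against 31.0% and 31.8% of all tested genes. In the authors' own deposited comparison, arid1b (adjusted p = 0.0969), pbrm1 (0.0834) and arid1aa (0.193) were not past 0.05. The rule used this contrast, so nothing is read from these counts of calls.

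**Figure D1:**
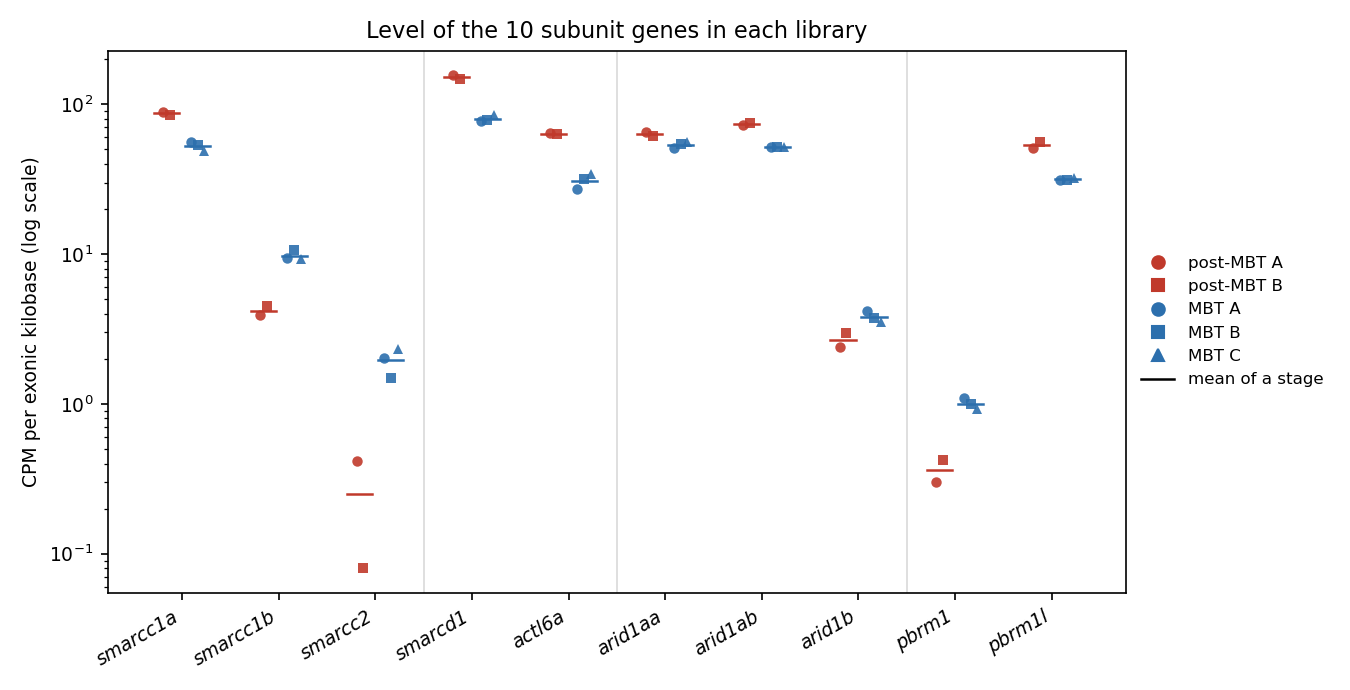
Level of each of the 10 genes in CPM per exonic kilobase (log axis) in the 2 post-MBT libraries (red) and the 3 MBT libraries (blue), with a bar at the mean of a stage. The genes smarcc1a, smarcd1, actl6a, arid1aa, arid1ab and pbrm1l lie between 27.1 and 156, while smarcc1b, smarcc2, arid1b and pbrm1 lie at or below 10.6. The level of arid1aa on this scale depends on its short gene model of 1531 exonic bases.

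The SMARCC proteins are the scaffold on which the complex assembles. The gene smarcc1a (chromosome 16, 42519662 to 42557517, minus strand, build D_rerio_Sep_2014) is an ortholog of mammalian SMARCC1, also called BAF155. It had 416 and 401 CPM in post-MBT A and B, against 262, 253 and 230 CPM in MBT A, B and C. The post-MBT libraries were both above all MBT libraries, and the log2 fold change (post-MBT over MBT) was 0.72 ± 0.07 (SE). Its copy smarcc1b (chromosome 19, 19769224 to 19806286, minus strand) had 13.2 and 15.2 CPM post-MBT, against 32.1, 35.8 and 31.4 CPM at the MBT, a log2 fold change of -1.23 ± 0.19. Here both post-MBT libraries lay below all MBT libraries, so the copies of SMARCC1 moved apart.

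The related smarcc2 (BAF170; chromosome 6, 39838942 to 39868574, plus strand) was the scarcest scaffold gene. It had 6 and 1 counts in post-MBT A and B, against 26, 30 and 31 counts in MBT A, B and C. These are 1.93 and 0.372 CPM post-MBT, against 9.38, 6.88 and 10.8 CPM at the MBT. Every MBT library held more than every post-MBT library, but the size of the difference rests on 7 counts. The log2 fold change was -2.83 ± 0.48, and it was -4.43 without post-MBT A and -2.16 without post-MBT B. In mouse, BAF170 is known for a role in the growth of the cerebral cortex.

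Within a library the ratio of paralogs does not depend on how libraries are scaled. Per exonic kilobase, the ratio of smarcc1a to smarcc1b was 22.4 and 18.7 in post-MBT A and B, against 5.83, 5.07 and 5.26 in MBT A, B and C. The mean log2 ratio was 4.36 ± 0.18 post-MBT and 2.43 ± 0.11 at the MBT (SD), a ratio 3.81-fold higher post-MBT. The counting error of a single library's log2 ratio was 0.12 to 0.23, close to the spread between libraries. Against smarcc2, the count ratio of smarcc1a was 215 (95% exact counting interval 98.6 to 587) in post-MBT A and 1079 (193 to 42660) in post-MBT B. In MBT A, B and C it was 27.9 (18.9 to 43.0), 36.7 (25.6 to 54.7) and 21.3 (14.9 to 31.6). Such intervals cover counting error alone, since reads copied by PCR do not count separate molecules.

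As shares of the summed smarcc level per kilobase, smarcc1a held 95.1 ± 0.31% post-MBT and 81.8 ± 1.01% at the MBT. The share of smarcc1b was 4.61 ± 0.57% post-MBT and 15.2 ± 0.97% at the MBT, and that of smarcc2 was 0.271 ± 0.26% post-MBT and 3.05 ± 0.80% at the MBT (SD, n = 2 and n = 3). The family's sum was 92.6 and 89.7 CPM per kilobase in post-MBT A and B, against 67.1, 65.7 and 60.5 in MBT A, B and C. The summed scaffold level was 1.42-fold higher post-MBT with TMM factors, and 1.06-fold higher with library totals, where the libraries of the stages overlap. Of its members smarcc1a alone was higher.

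**Figure D2:**
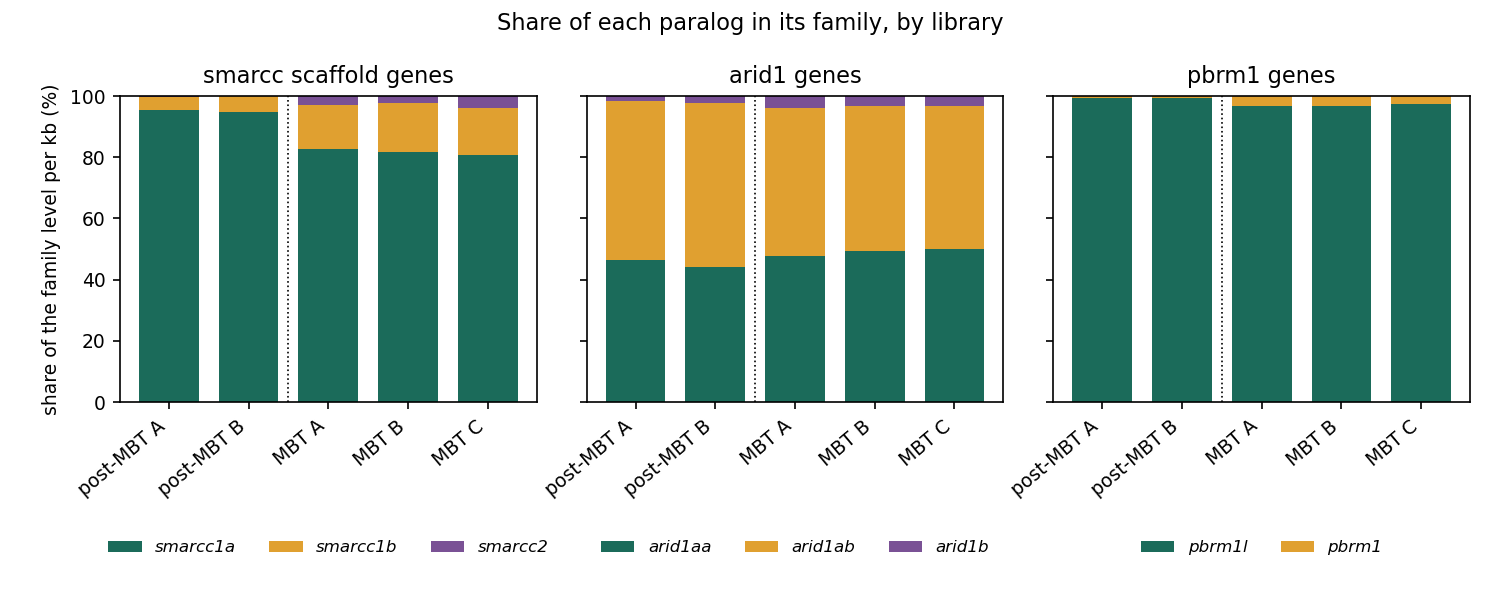
Share of each paralog in the summed CPM per exonic kilobase of its family (percent), 1 bar per library, with the post-MBT libraries left of the dotted line and the MBT libraries right of it. The share of smarcc1a is 94.9% or more post-MBT and 82.8% or less at the MBT. On this scale arid1aa and arid1ab divide their family almost evenly at both stages, which depends on the short gene model of arid1aa. In raw counts arid1ab held a mean of 84.2% post-MBT and 79.5% at the MBT.

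The other core genes among the 10 are smarcd1 and actl6a, both higher post-MBT. SMARCD1 (BAF60a) links the complex to transcription factors, and ACTL6A (BAF53a) is an actin-related protein that binds the ATPase. The gene smarcd1 (chromosome 22, 6979216 to 6995517, minus strand) had 415 and 395 CPM in post-MBT A and B, against 206, 208 and 225 CPM in MBT A, B and C, a log2 fold change of 0.93 ± 0.08. The gene actl6a (chromosome 6, 29396168 to 29405145, plus strand) had 128 and 126 CPM post-MBT, against 54.1, 62.9 and 68.3 CPM at the MBT, a log2 fold change of 1.03 ± 0.11, the highest of the 10. For both genes the groups do not overlap. Relative to the summed scaffold level per kilobase of the same library, smarcd1 stood at 1.67 ± 0.02 post-MBT and 1.25 ± 0.13 at the MBT, and actl6a at 0.696 ± 0.01 post-MBT and 0.482 ± 0.08 at the MBT (SD).

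Their paralogs were scarce. At 152 ± 5.27 CPM per kilobase post-MBT and 80.0 ± 3.94 at the MBT, smarcd1 was the highest of the 10 genes at both stages. The paralogs smarcd2, smarcd3a and smarcd3b had 0.775, 2.32 and 5.72 CPM per kilobase post-MBT, against 0.864, 1.80 and 1.74 at the MBT. Of these, smarcd3b, whose mammalian ortholog BAF60c acts in heart and muscle, had 71 and 80 counts post-MBT, against 30, 24 and 22 counts at the MBT, and rose (log2 fold change 1.76 ± 0.23, edgeR adjusted p = 5.00e-10), and the other two had no call. The neuronal counterpart of actl6a, actl6b, stands on the list of genes with under 1 count in the authors' deposited table. Embryos of these stages have no differentiated neurons, and of 3 neuronal markers (elavl3, neurod1 and snap25a) the 2 in the table had at most 10 counts in a library.

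The ARID1 subunits carry an AT-rich interaction domain and mark the BAF form. The gene arid1ab (chromosome 19, 14489824 to 14575196, plus strand) had 630 and 648 CPM in post-MBT A and B, against 447, 450 and 452 CPM in MBT A, B and C. The MBT libraries were nearly identical, and the log2 fold change was 0.51 ± 0.07. Its copy arid1aa (chromosome 16, 34000098 to 34026828, plus strand) had 99.2 and 93.7 CPM post-MBT, against 77.9, 83.1 and 85.7 CPM at the MBT. Its log2 fold change of 0.23 ± 0.11 was the smallest of the 10 and changed sign, to -0.18, when library totals replaced the TMM factors. By edgeR arid1aa was the 1 gene of the 10 not past an adjusted p of 0.05. The rule used this contrast, so nothing is read from that. The gene arid1b (chromosome 20, 4855343 to 5009910, minus strand) had 20.9 and 26.0 CPM post-MBT, against 36.8, 32.8 and 31.0 CPM at the MBT, a log2 fold change of -0.52 ± 0.17, which was -0.36 without post-MBT A.

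The copies of ARID1A kept close to each other per exonic kilobase, and both stood far above arid1b on that scale. Per kilobase, the ratio of arid1aa to arid1ab was 0.894 and 0.821 in post-MBT A and B, against 0.990, 1.05 and 1.08 in MBT A, B and C. Both post-MBT values lie below all MBT values, a difference of -0.28 in the mean log2 ratio. This near equality depends on the gene model: the table gives arid1aa 1531 exonic bases, against 8677 for arid1ab and 8774 for arid1b, and in raw counts arid1aa had 0.158 and 0.145 of the counts of arid1ab post-MBT and 0.174 to 0.190 of them at the MBT. The change of the ratio between the stages is the same with either scale. Set against arid1b, arid1ab stood at 30.2 and 25.0 per kilobase post-MBT and at 12.2, 13.8 and 14.7 at the MBT, and arid1aa at 27.0 and 20.5 post-MBT and at 12.1, 14.5 and 15.8 at the MBT. The values of arid1aa depend on its short gene model. In raw counts its ratio to arid1b was 4.74 and 3.60 post-MBT, against 2.12, 2.53 and 2.76 at the MBT. The share of arid1b in the family was 1.92 ± 0.30% post-MBT and 3.50 ± 0.39% at the MBT (SD). The family's sum was 139 CPM per kilobase post-MBT and 109 at the MBT, 1.27-fold higher post-MBT with TMM factors. This direction depends on the scaling: with library totals the sum was 117 post-MBT and 122 at the MBT, 0.960-fold, and the libraries of the stages overlap.

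PBRM1 (BAF180) carries a row of bromodomains that bind acetylated histones and marks the PBAF form. The gene pbrm1l (chromosome 6, 46404685 to 46429715, plus strand) had 290.1 and 319 CPM in post-MBT A and B, against 178, 176 and 185 CPM in MBT A, B and C. The groups are well apart, with a log2 fold change of 0.76 ± 0.08. Its paralog pbrm1 (chromosome 11, 3890368 to 3939988, minus strand) had 5 and 6 counts in post-MBT A and B, against 16, 23 and 14 counts in MBT A, B and C. These are 1.61 and 2.23 CPM post-MBT, against 5.77, 5.28 and 4.88 CPM at the MBT, a log2 fold change of -1.46 ± 0.48. It was the lowest of the 10 genes per kilobase at the MBT. Of all tested genes, 7.80% had a lower level per kilobase than pbrm1 at that stage, and 94.9% had a lower one than smarcc1a.

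The count ratio of pbrm1l to pbrm1 was 180.2 (95% exact counting interval 76.9 to 556) in post-MBT A and 143 (65.5 to 391) in post-MBT B. In MBT A, B and C it was 30.8 (18.8 to 54.3), 33.4 (22.1 to 53.1) and 37.9 (22.4 to 69.7). Summed over the libraries of a stage, the ratio per kilobase was 149 (83.1 to 299) post-MBT and 31.5 (24.0 to 42.2) at the MBT. The gene pbrm1l held 99.3 ± 0.11% of the family's level post-MBT and 96.9 ± 0.31% at the MBT (SD). The family's sum was 51.2 and 56.4 CPM per kilobase post-MBT, against 32.3, 32.0 and 33.3 at the MBT, 1.66-fold higher post-MBT with TMM factors and 1.25-fold higher with library totals. Per kilobase, the summed arid1 level over the summed pbrm1 level was 2.73 and 2.46 in post-MBT A and B, against 3.30, 3.44 and 3.35 in MBT A, B and C. The BAF-defining transcripts thus outnumbered these PBAF-defining ones in every library, by less post-MBT, though the short gene model of arid1aa enters this ratio.

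**Figure D3:**
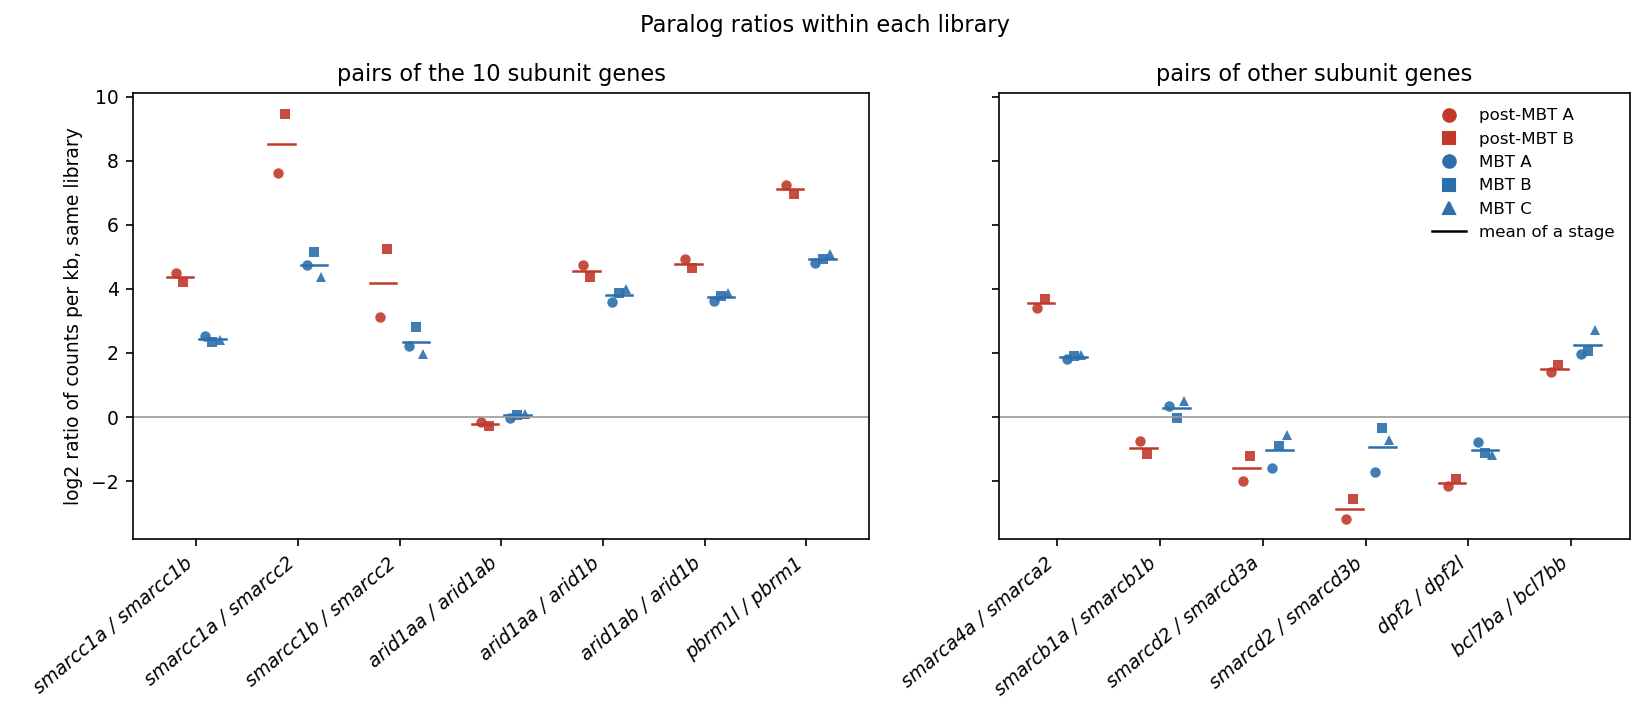
Log2 ratio of counts per exonic kilobase between paralogs within each library, for the 7 pairs among the 10 genes (left) and 6 pairs of other subunit genes (right), post-MBT in red and MBT in blue with a bar at the mean of a stage. On the left the post-MBT values lie below the MBT values for arid1aa over arid1ab and above them for the other pairs. These pairs share genes that were picked with the difference known, so nothing is read from this. On the right the stages overlap for smarcd2 over smarcd3a alone. There smarcb1a over smarcb1b has a mean of -0.95 post-MBT and 0.28 at the MBT.

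Ordered by level per kilobase post-MBT, the genes ran smarcd1, smarcc1a, arid1ab, actl6a, arid1aa, pbrm1l, smarcc1b, arid1b, pbrm1 and smarcc2. The library ranges of actl6a and arid1aa overlapped, as did those of pbrm1 and smarcc2. At the MBT the order was smarcd1, arid1aa, smarcc1a, arid1ab, pbrm1l, actl6a, smarcc1b, arid1b, smarcc2 and pbrm1, with overlap between arid1aa and smarcc1a, between smarcc1a and arid1ab, and between pbrm1l and actl6a. The same 6 genes led at both stages, all at 50.9 CPM per kilobase or more in each post-MBT library, and the same 4 trailed. The place of arid1aa in both orders depends on its short gene model. In CPM its mean was 96.4 post-MBT and 82.2 at the MBT, against 639 and 450 for arid1ab.

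The positions of these genes form pairs that the choice of genes did not use. On chromosome 16, smarcc1a starts 8.52 Mb after arid1aa, and on chromosome 19 smarcc1b starts 5.28 Mb after arid1ab. Of smarcc1a and smarcc1b the higher one is on chromosome 16, whereas of arid1aa and arid1ab the one with more counts is on chromosome 19. A further 3 of the genes, smarcc2, actl6a and pbrm1l, are on chromosome 6. Reads were counted without regard to strand, which leaves reads of overlapping genes mixed. Leaving aside gene models drawn over more than 2 Mb, the one overlap was that of smarcc1a with oxr1a, on the opposite strand, which had at most 17 counts in a library. The authors' deposited table lists 0 for the comparison of exons within a gene at all 10 genes. Whether 0 stands there for no difference or for no test is not known.

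To see how the rest of the machine moved, 33 names of other SWI/SNF subunit genes were looked up. The list held alternative names of a gene side by side (bicra and gltscr1, bicral and gltscr1l), so an unmatched name need not be an absent gene. Of the names, 26 were matched in the table used here, and 20 passed the filter and were tested. Of these 20, 12 rose, 3 fell and 5 had no call by edgeR's quasi-likelihood test, which is 60.0% and 15.0% of them, against 31.0% and 31.8% of all tested genes. The median log2 fold change was 0.50, against -0.04 over all tested genes. When scaled by library totals alone, 9 rose and 5 fell, with 2173 rises and 5574 falls over all genes in place of 3724 and 3813. The list was drawn up with results of these libraries known.

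**Figure D4:**
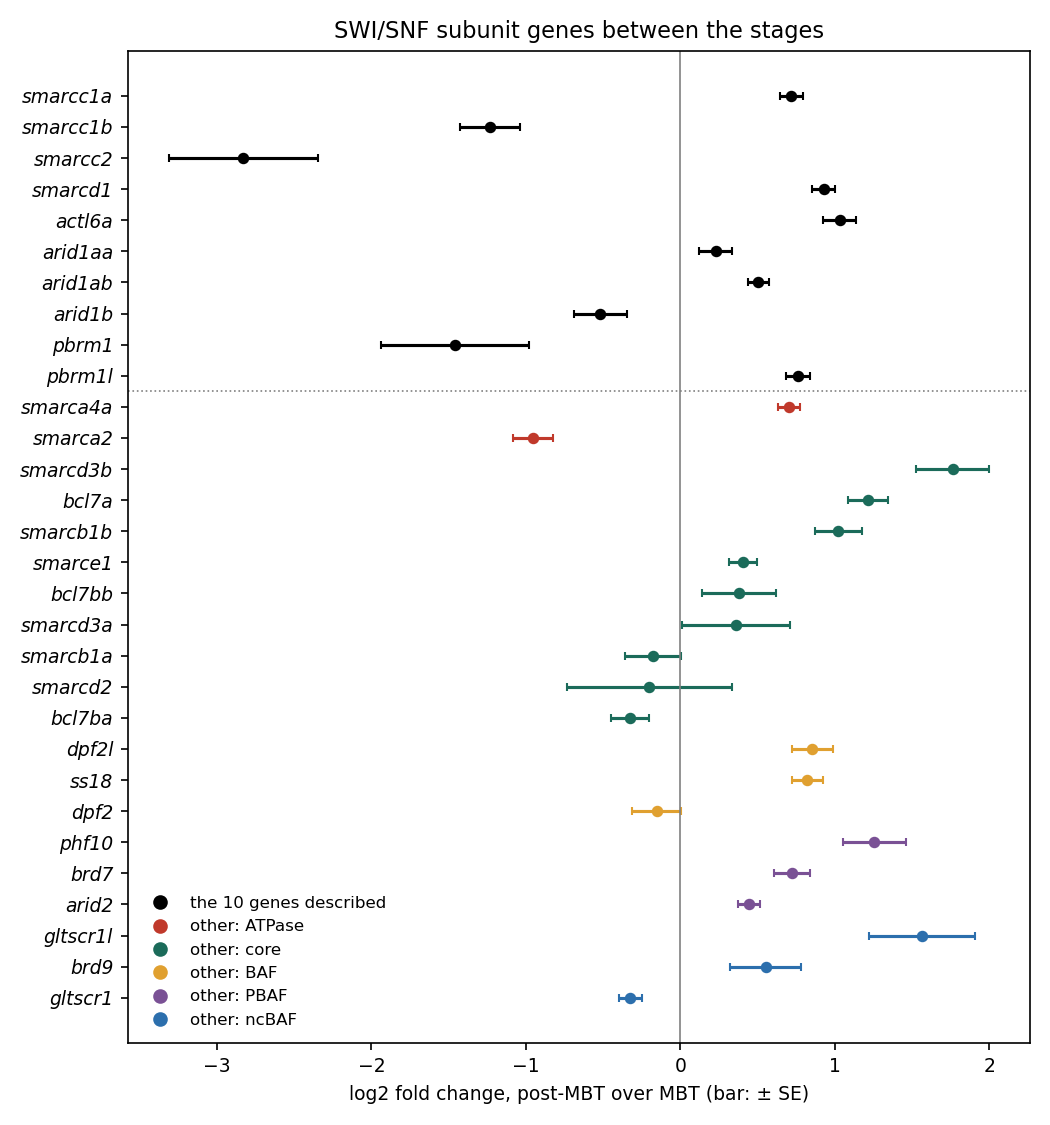
Log2 fold change (post-MBT over MBT, ± SE derived from the edgeR test) of the 10 genes (black, above the dotted line) and of the 20 other tested SWI/SNF subunit genes, coloured by their place in the complex. Of the other subunit genes, phf10, brd7 and arid2 of PBAF lie above 0. The genes smarca2, gltscr1, bcl7ba, smarcb1a, smarcd2 and dpf2 lie below 0, and of these smarca2, gltscr1 and bcl7ba had a call.

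Among the ATPases, smarca4a (BRG1) had 442 and 430 CPM in post-MBT A and B, against 284, 256 and 265 CPM in MBT A, B and C, and it rose by 0.70 ± 0.07 on the log2 scale (edgeR adjusted p = 8.64e-14). The alternative ATPase gene smarca2 (BRM) had 44.1 and 35.7 CPM post-MBT, against 87.0, 72.7 and 74.6 CPM at the MBT, and fell (log2 fold change -0.95 ± 0.13, edgeR adjusted p = 1.43e-09). In the core, bcl7a had 76.9 and 80.7 CPM post-MBT, against 34.3, 37.4 and 28.9 CPM at the MBT, and rose (1.21 ± 0.13, edgeR adjusted p = 2.22e-13). Its relative bcl7ba had 53.1 and 57.6 CPM post-MBT, against 64.6, 72.3 and 70.0 CPM at the MBT, and fell (-0.33 ± 0.12, edgeR adjusted p = 0.0172), without a call by DESeq2 or without post-MBT A. For these 4 genes the stages do not overlap, as for 73.9% of all tested genes.

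Of the BAF genes, ss18, whose human ortholog is fused in synovial sarcoma, had 132 and 153 CPM post-MBT, against 85.9, 76.9 and 79.1 CPM at the MBT (0.82 ± 0.10, edgeR adjusted p = 2.96e-11). Of the PBAF genes on this list, arid2 (0.45 ± 0.07), brd7 (0.72 ± 0.12) and phf10 (1.26 ± 0.21) rose, as did 31.0% of all tested genes, and arid2 had no call with library totals. Of the PBAF genes among the 10, pbrm1l was higher post-MBT and pbrm1 was lower. The ncBAF form, marked by BRD9 and GLTSCR1, had gltscr1 at 286 and 291 CPM post-MBT, against 380, 350 and 353 CPM at the MBT, and gltscr1 fell (-0.32 ± 0.08, edgeR adjusted p = 1.29e-04). Its paralog gltscr1l had 30 and 29 counts post-MBT, against 8, 12 and 14 counts at the MBT, and rose (1.57 ± 0.35, edgeR adjusted p = 6.31e-05). In that family it was the scarce copy that was higher post-MBT.

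The same within-library ratios were taken for pairs of these other genes. For smarcb1a over smarcb1b, the copies of the core subunit SNF5, the ratio per kilobase was 0.593 and 0.450 in post-MBT A and B, against 1.28, 0.984 and 1.43 in MBT A, B and C. Per kilobase smarcb1b was ahead in both post-MBT libraries and, narrowly, in MBT B, while smarcb1a was ahead in MBT A and C. The gene smarcb1b rose to 50.4 ± 3.89 CPM post-MBT, against 24.6 ± 3.53 CPM at the MBT, while smarcb1a, with no call, had 24.4 ± 2.90 and 28.0 ± 4.21 CPM (SD). For dpf2 over dpf2l, genes of a histone-reading BAF subunit, the ratio was 0.223 and 0.261 post-MBT, against 0.585, 0.460 and 0.441 at the MBT. For bcl7ba over bcl7bb it was 2.63 and 3.08 post-MBT, against 3.95, 4.18 and 6.60 at the MBT. Each of these 3 pairs gave a 2-sided exact permutation p of 0.1, the smallest possible with 2 libraries against 3 (adjusted p = 0.167 over 5 pairs). The pairs of smarcd2 with smarcd3a and smarcd3b gave exact permutation p of 0.4 and 0.2 (adjusted p = 0.4 and 0.25). None of the 5 pairs could pass 0.05 in this design. The known pair smarca4a over smarca2 stood at 10.7 and 12.8 post-MBT and at 3.48, 3.75 and 3.79 at the MBT.

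Likeness of pattern was measured as the root mean square difference of log2 CPM, centred on each gene, over the 5 libraries, among the 29 other genes of the complex. For smarcc1a the nearest were smarca4a (0.06), brd7 (0.07) and pbrm1l (0.10). For smarcc2, whose post-MBT values rest on 7 counts, they were pbrm1, smarca2 and smarcc1b, each at 0.94. The measure is built on the same stage values as the fold changes and is given as a description.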

How the data were processed

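Novoalign 2.8 and DESeq2 are listed, per the submitters' processing notes. Per the file headers, the deposited counts are alignments that overlap a gene by at least 1 base, with a pair counted once, on the build D_rerio_Sep_2014. Gene starts count from 0 there and are given here from 1. Lengths are the deposited exonic base pairs. Per the file headers, the authors' log2 ratios and scores (minus 10 times log10 of a corrected p) come from their own comparison. Of these only the exon comparison and the adjusted p of arid1aa, arid1b and pbrm1 are quoted. A further 10 columns of per-library values were not used. The treatment of reads with several map positions is not given in any source used here, and paralogs may share some reads. The labels' protocols give 5 ng of total RNA, random hexamers, tagmentation and 10 PCR cycles.

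Count columns carry a stage and no sample name, and served as replicates of their stage. In counts scaled by their sums, without TMM factors, libraries of a stage differed beyond sampling noise in all pairs (chi-square over degrees of freedom 1.28 to 5.34). Differences in composition, such as the mitochondrial share, enter these values. Stages were compared with edgeR 4.0.16 in R 4.3.3 (robust quasi-likelihood test, TMM factors, filterByExpr at a count of 10, Benjamini-Hochberg adjustment, threshold 0.05). The code was first run on simulated counts in which few genes changed, up and down alike. That run does not test the scaling between these stages, where many genes differ. Fold changes are on the log2 scale, post-MBT over MBT, ± SE. The SE was derived from the test, as the absolute log2 fold change over the square root of its F statistic. Ratios per kilobase add 0.5 to each count. Alternatives were DESeq2 1.42.0, other scalings and filters, an offset for exonic length, and leaving out each library. The members, lists and tests were chosen with earlier results of these data known. Named genes are the 10 members and, of the other subunits, those of the pairs and the 3 rises and 3 falls with the smallest adjusted p. The per-library counts and call of smarcd3b, a gene of the pairs, were added after its values were seen. The same holds for gltscr1l and the PBAF genes, which are not in the pairs.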

Additional observations from a re-analysis of the deposited data

How the results depend on the processing

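The signs of the 10 log2 fold changes stayed the same over 13 alternatives, except that of arid1aa, which was -0.18 with library totals. That scaling moved log2 fold changes over all tested genes by a median of -0.41. With it, 2173 genes rose, 5 of the other subunits fell, and their median log2 fold change was 0.0872, against 0.50. In an alternative added after seeing the data, the same scaling gave the summed arid1 level a log2 fold change of -0.0595, against 0.35, the summed smarcc level 0.089, against 0.50, and the summed pbrm1 level 0.32, against 0.73. The median of the other subunits was 0.59 with the stricter filter, 0.61 with the length offset, 0.57 without mitochondrial genes, and 0.45 to 0.65 when single libraries were left out. With DESeq2 2539 genes fell. The stricter filter removed pbrm1. The ratios were not run on the authors' FPKM. In raw counts the log2 ratio of arid1aa to arid1ab at the MBT was -2.45, against 0.05 per kilobase, by the construction of that scale. Leaving out single libraries, the difference of the log2 ratio between the stages ran from 2.85 to 4.71 for smarcc1a over smarcc2, from 0.80 to 2.91 for smarcc1b over smarcc2 and from 1.54 to 1.80 for smarca4a over smarca2, with the lowest values without post-MBT B and the highest without post-MBT A. Among the other subunits, brd9 had no call in 5 of 13 alternatives, bcl7ba in 2, and smarce1 and arid2 in 1 each. The direction of smarce1 was also reversed in 1 alternative. No paired analysis was possible because the count columns carry no replicate number of the labels. At 1 to 6 counts per library, depth limits what can be said of smarcc2 and pbrm1 post-MBT.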
